A study of Macaca mulatta with 14 samples.

Results

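The single-cell colony A9-P7 was compared with the single-cell colony C8-P7, each profiled by RNA sequencing with 2 libraries. These are 4 of the 14 libraries of a study that converted fibroblasts of Macaca mulatta to neuroepithelial stem cells (NESCs). Ear skin fibroblasts of 2 male fetuses at embryonic day 65 were infected with retroviruses carrying OCT4, SOX2 and KLF4 of the rhesus monkey, and the epithelial colonies that formed were passaged to CHIR-P6 (passage 6) and CHIR-P23 (passage 23). Cells of CHIR-P23 were then plated as single cells, and A9-P7 and C8-P7 are the colonies that were kept. By this plating each of them should be a single clone, and both descend from the infected fibroblasts. Whether each is clonal, and which of the 2 fetuses it came from, was not tested. Differences between the fetuses are therefore not separated from those between the colonies. Which viral copies each colony carries was not tested. According to the labels, both grew on laminin in iNESC-M, a medium with 3 µM CHIR99021 (which activates WNT signalling), 5 µM SB431542 (which blocks TGF-beta receptors), the cytokine hLIF at 1000 U/ml, bFGF at 10 ng/ml and vitamin C. The article's own list of this medium leaves out CHIR99021. The labels give passage 23 for both colonies and do not explain P7. The members are the 15024 genes, of 33688 gene loci with a value, that had an FPKM (fragments per kilobase of transcript, scaled to library size) of at least 1 in at least 2 of the 14 libraries.

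NESCs are dividing progenitors of the early neural tube. They form rosettes, keep SOX2, PAX6 and nestin, and can give rise to neurons and glia. A colony grown from a single cell descends from 1 member of a culture that may be mixed.

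The libraries of a colony resembled each other closely. Only 2 of the 15024 genes (0.0133%) differed by 2-fold between the libraries of A9-P7 and 3 (0.02%) between those of C8-P7, and the median absolute difference was 0.01 and 0.02 on the log2(FPKM + 1) scale. Within a pair, the difference was smaller than separately drawn fragments would give, and the average of a pair therefore stands for 1 sample. A single sample per colony allows no test and no p-value, and every difference below is a description, called where it reached 2-fold on the log2(FPKM + 1) scale. On this scale, differences of genes at low FPKM appear smaller than their ratios. Genes said below to be within 2-fold are so on this scale. For most loci the deposited values stood 1 row away from their labels and were first moved back. A9-P7 was sequenced more deeply, since 1 fragment was worth 4.16 times more FPKM in C8-P7 than in A9-P7. In bulk RNA, fewer cells that express a gene and less RNA per cell cannot be told apart.

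At this limit, 200 genes (1.33%) were higher and 179 genes (1.19%) were lower in A9-P7, and 14645 genes were neither. Of all 15024 genes, 90% lay between -0.48 and 0.58 on the log2 scale, with a median of 0. The libraries of the colonies did not overlap in any of the 379 genes, but the same held without a fold limit for 42.5% of all genes on the higher side and 46% on the lower side. At least 4-fold differences were found in 30 genes higher and 25 genes lower in A9-P7, and at least 8-fold ones in 7 genes each. Many of these genes were weakly expressed, as 116 of the 200 stayed under 5 FPKM in A9-P7 and 83 of the 179 stayed under 5 FPKM in C8-P7. Of the higher genes, 46 were listed at 0 in both libraries of C8-P7, the shallower colony, and of the lower genes, 13 were listed at 0 in both libraries of A9-P7. The part of depth in these zeros was not tested.

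**Figure D1:**
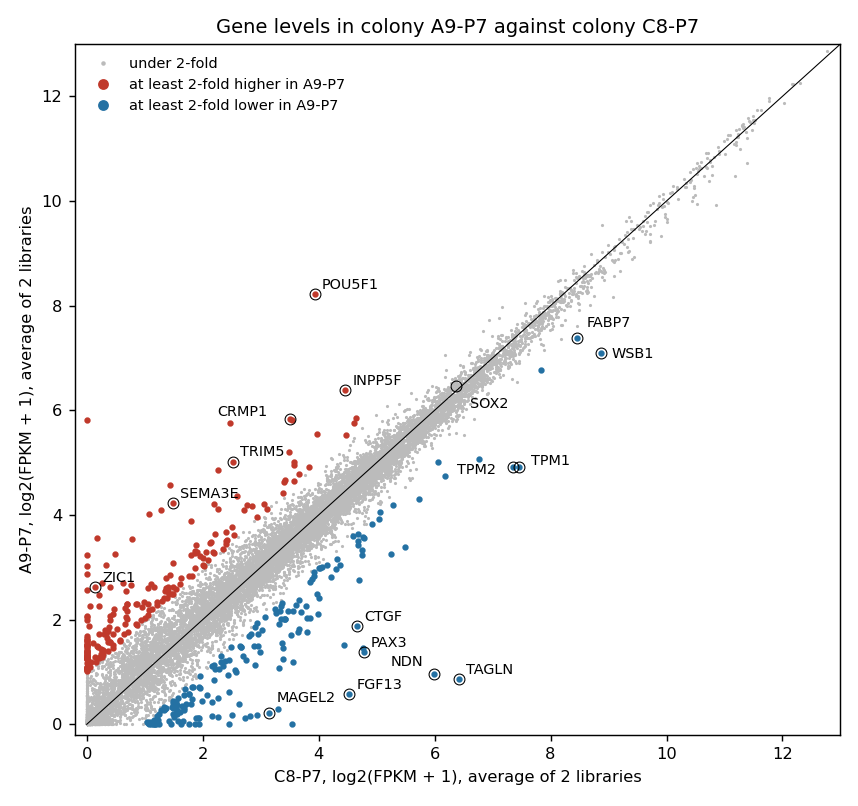
Average log2(FPKM + 1) of A9-P7 (vertical axis) against C8-P7 (horizontal axis) for the 15024 genes, with the line of equal levels. The 200 genes at least 2-fold higher in A9-P7 are red and the 179 lower ones blue; POU5F1 lies far above the line, TAGLN and NDN far below it, and SOX2 on it.

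Of the 3 reprogramming factors, 2 (66.7%, against 1.33% of all genes) were higher in A9-P7 and 1 was level. POU5F1, which encodes OCT4, had 297 and 299 FPKM in A9-P7, against 14.3 FPKM in both libraries of C8-P7, a ratio of 20.9 and a log2 difference of 4.29. Among genes with a gene name and 20 FPKM or more in A9-P7, this was the largest increase. KLF4 had 1.46 and 1.42 FPKM in A9-P7, against 0.19 FPKM in both libraries of C8-P7, with a log2 difference of 1.03, which came under the limit with a pseudocount of 5 (0.31) and with quantile normalization (0.97). SOX2, in contrast, had 86.9 and 87.2 FPKM in A9-P7 and 81.6 and 81.1 FPKM in C8-P7, a difference of 0.10. FPKM does not separate viral copies of these 3 genes from the cells' own, and which of them gave the POU5F1 level was not tested.

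The parental culture CHIR-P23 stood between the colonies for POU5F1, at 74.7 FPKM. Over the conversion, POU5F1 averaged 0.174 FPKM in the fibroblasts (RF-P3), 631 FPKM on day 5 (RF-iN-d5), 461 FPKM on day 11 (RF-iN-d11) and 181 FPKM in CHIR-P6. A9-P7 was therefore above both passages of the uncloned NESCs, while C8-P7 was below them. KLF4 in CHIR-P23 was 6.83 FPKM, above both colonies.

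The higher POU5F1 of A9-P7 was not accompanied by a call among the other genes of pluripotent cells. Of 13 pluripotency genes that passed the filter, 0 were higher and 0 were lower at 2-fold. Of these, 5 lay above 0 and 4 below 0. The remaining ones had a difference of exactly 0, which is also the median, so fewer than 13 genes bear on the comparison. The list summed to 421 FPKM in both libraries of A9-P7, against 438 and 440 FPKM in C8-P7, and most of this was LIN28A. NANOG, DPPA2, DPPA4, DPPA5 and PRDM14 were listed at 0 in all 4 libraries and did not pass the filter. LIN28A, an RNA-binding protein that neural progenitors also express, had 271 and 270 FPKM in A9-P7 and 285 and 286 FPKM in C8-P7. SALL4 had 56.2 and 56.1 FPKM in A9-P7 and 45.6 and 46.0 FPKM in C8-P7.

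Both colonies carried the neuroepithelial markers. PAX6, a transcription factor of the neural tube, had 33.4 and 33.7 FPKM in A9-P7 and 32.5 and 32.6 FPKM in C8-P7. SOX3 had 65.4 and 64.9 FPKM in A9-P7 and 75.5 and 75.2 FPKM in C8-P7. Of 27 markers that passed the filter, 0 were higher and 2 (7.41%) were lower in A9-P7, against 1.19% of all genes, with a median of -0.24 and 19 of 27 below 0. The first of these, SOX1, had 3.45 and 3.36 FPKM in A9-P7, against 11.8 and 12 FPKM in C8-P7, a log2 difference of -1.55. The second, FABP7, which binds fatty acids in radial glia, had 165 and 167 FPKM in A9-P7, against 350 and 353 FPKM in C8-P7, a log2 difference of -1.08 that came under the limit with quantile normalization (-0.95). Nestin (NES), an intermediate filament of progenitors, was under the limit at 256 FPKM in both libraries of A9-P7 and 411 FPKM in both libraries of C8-P7.

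Markers of other cell types were low or similar in both colonies. Of 20 neuron genes, 0 were called, with a median of -0.15, and TUBB3, a tubulin of young neurons, had 214 FPKM in both libraries of A9-P7 and 262 and 261 FPKM in C8-P7. All 7 forebrain genes that passed the filter were within 2-fold. The 4 mesoderm and endoderm genes that passed it summed to only 0.0649 FPKM in A9-P7 and 0.0521 FPKM in C8-P7. The 8 endothelium and blood genes summed to 0.148 FPKM in A9-P7 and 0.334 FPKM in C8-P7. At such levels no gene of these lists could reach the limit on the log2(FPKM + 1) scale, so the lack of calls there says nothing about a difference. Of 23 fibroblast genes, only SPARC was lower (4.35%, against 1.19% of all genes). It had 32.5 and 32.6 FPKM in A9-P7 and 107 and 109 FPKM in C8-P7. The fibroblast list summed to 111 and 112 FPKM in A9-P7 and to 172 and 175 FPKM in C8-P7. COL1A1, a defining collagen of fibroblasts, was at 0.142 and 0.128 FPKM in A9-P7 and 0.773 and 0.810 FPKM in C8-P7, and DCN and POSTN were listed at 0 in both libraries of A9-P7 and averaged 0.135 and 0.0537 FPKM in C8-P7. The 9 genes of the list of Y-linked genes and XIST that passed the filter, all of them Y-linked, were within 2-fold.

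Genes of the contractile cytoskeleton, which form and stabilise actin filaments in fibroblasts and smooth muscle, were mostly lower in A9-P7. Of 20 genes, 5 (25%) were lower and 1 (5%) was higher, against 1.19% and 1.33% of all genes, with a median of -0.44 and 17 of 20 below 0. TAGLN (transgelin, chromosome 14), an actin cross-linking protein, had 0.907 and 0.741 FPKM in A9-P7, against 84.7 and 84.6 FPKM in C8-P7, a log2 difference of -5.55. No gene of 20 FPKM or more in C8-P7 was lower by more. CHIR-P23 had 61.7 FPKM of TAGLN and CHIR-P6 had 2.14 FPKM, so that A9-P7 lay near the early passage and C8-P7 near the late one.

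The tropomyosins, which lie along the actin filament, differed in the same direction. TPM1 (chromosome 7) had 29.1 FPKM in both libraries of A9-P7, against 174 FPKM in both libraries of C8-P7, a ratio of 5.97 in favour of C8-P7. TPM2 (chromosome 15) had 29.1 and 29.3 FPKM in A9-P7, against 162 and 163 FPKM in C8-P7, with a log2 difference of -2.43. ACTG2, a smooth muscle actin, had 1.46 and 1.28 FPKM in A9-P7, against 10.4 and 8.59 FPKM in C8-P7. The fifth gene, TAGLN2, a relative of TAGLN, and the single higher one, DES (desmin), are outside the rule for naming genes and were chosen after their values were seen. TAGLN2 had a log2 difference of -1.82, and DES had 2.43 and 2.41 FPKM in A9-P7, against 0.283 and 0.282 FPKM in C8-P7.

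The defining smooth muscle genes were low in both colonies. ACTA2, their actin, was at 0.876 and 0.930 FPKM in A9-P7 and at 1.78 and 1.77 FPKM in C8-P7. CNN1 (calponin) was at 0.08 FPKM in both libraries of A9-P7 and at 0.917 and 0.830 FPKM in C8-P7, and MYH11, the smooth muscle myosin, did not pass the filter. The abundant actin ACTB had 984 FPKM in both libraries of A9-P7 and 1478 and 1471 FPKM in C8-P7, under the limit. The contractile list summed to 1380 FPKM in both libraries of A9-P7, against 2344 and 2336 FPKM in C8-P7.

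Targets of YAP, a co-activator that responds to cell shape and contact, included several of the large decreases. Of 15 genes, 3 (20%) were lower and 0 were higher, against 1.19% and 1.33% of all genes, with a median of -0.23 and 14 of 15 below 0. CTGF, a secreted matricellular protein, had 2.65 and 2.68 FPKM in A9-P7, against 24.2 and 24.5 FPKM in C8-P7, a log2 difference of -2.79. CYR61, its relative, had 2.99 and 3.19 FPKM in A9-P7, against 13.2 and 12.7 FPKM in C8-P7. AJUBA, a LIM protein of cell junctions, had 7.20 and 7.30 FPKM in A9-P7, against 19.8 and 19.6 FPKM in C8-P7. Among the largest decreases outside this list, THBS1 (thrombospondin 1, a matrix glycoprotein) had 1.86 and 1.88 FPKM in A9-P7, against 20.6 FPKM in both libraries of C8-P7. CAV1, the main protein of caveolae, had 9.53 and 9.41 FPKM in A9-P7, against 43.7 and 43.8 FPKM in C8-P7. These genes were high in fibroblasts, where THBS1 averaged 520 FPKM and CAV1 977 FPKM.

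**Figure D2:**
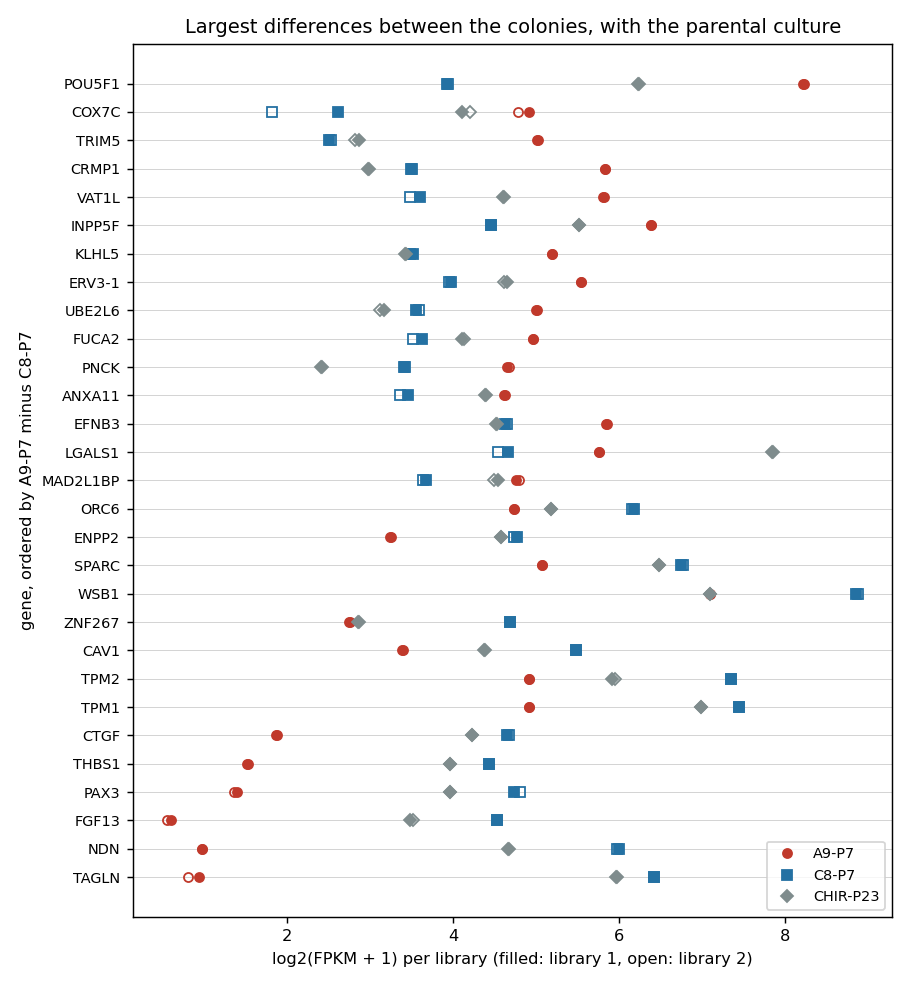
Level of each library, as log2(FPKM + 1), for the 15 largest increases and 14 of the largest decreases in A9-P7 among genes that reached 20 FPKM in 1 of the colonies, with A9-P7 (red circles), C8-P7 (blue squares) and CHIR-P23 (grey diamonds). Libraries of a colony nearly coincide except for COX7C in C8-P7, and CHIR-P23 lies between the colonies for some genes, such as POU5F1 and TAGLN, and outside them for others, such as LGALS1 and PNCK.

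Patterning genes of the neural tube, which give progenitors their position, differed in single members. PAX3 (chromosome 12), a transcription factor of the dorsal neural tube and neural crest, had 1.62 and 1.57 FPKM in A9-P7, against 25.7 and 27.1 FPKM in C8-P7, a log2 difference of -3.40. CHIR-P6 and CHIR-P23 had 14.7 and 14.6 FPKM of PAX3. ZIC1 (chromosome 2), another dorsal factor, went the other way, with 5.20 and 5.14 FPKM in A9-P7, against 0.121 and 0.08 FPKM in C8-P7, a log2 difference of 2.49. Both colonies were below CHIR-P23 for ZIC1, which had 29.3 FPKM. Its neighbour ZIC4 was at 0.726 and 0.777 FPKM in A9-P7, against 0.03 FPKM in both libraries of C8-P7, and was chosen after its values were seen. PAX7, the relative of PAX3, was within 2-fold at a difference of -0.60. Of the 13 dorsal genes, PAX3 was the only lower and ZIC1 the only higher one (7.69% each, against 1.19% and 1.33% of all genes).

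IRX1 (chromosome 6), an Iroquois homeobox gene, had 0.214 and 0.229 FPKM in A9-P7, against 8.85 and 8.93 FPKM in C8-P7, while the other Iroquois genes of the list were within 2-fold (IRX2 0.55, IRX3 0.36 and IRX5 0.09 on the log2 scale). IRX1 was the only gene called among 15 hindbrain and spinal cord genes (6.67%, against 1.19% of all genes lower). DBX1, a marker of the intermediate neural tube, was the only one called among 8 ventral genes (12.5%). It had 2.65 and 2.59 FPKM in A9-P7, against 6.76 and 6.14 FPKM in C8-P7. POU3F4, an X-linked POU factor of the neural tube chosen after its values were seen, was listed at 0 in both libraries of A9-P7, against 10.3 and 11.1 FPKM in C8-P7, and was at 2.60 FPKM in CHIR-P23.

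HOX genes, which mark position along the body axis, did not reach the limit between the colonies. Of 26 HOX genes that passed the filter, 0 were higher and 0 were lower, with a median of 0. Of these, 6 lay above 0 and 10 below 0. The remaining ones were listed at 0 in both colonies, passed the filter through other lines and could not be called. Others were under 1 FPKM in both colonies, where this scale makes ratios appear small. HOXB2 was the highest, at 38.4 and 37.7 FPKM in A9-P7 and 46.3 and 45.1 FPKM in C8-P7. HOXB3 had 31.1 FPKM in both libraries of A9-P7 and 26.1 and 25.5 FPKM in C8-P7, and HOXB4 had 21.7 and 21.8 FPKM in A9-P7 and 20.3 and 20.1 FPKM in C8-P7. The largest decrease was -0.71 for HOXD8. The posterior genes HOXC8, HOXC9 and HOXC10 were listed at 0 in all 4 libraries. HOXA9 averaged 0.157 FPKM in A9-P7 and 0.708 FPKM in C8-P7, against 24.2 FPKM in CHIR-P23, so that both colonies were below their parental culture.

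Imprinted genes are transcribed from the copy of a single parent, a choice set by DNA methylation. Of 26 imprinted genes that passed the filter, 2 (7.69%) were higher and 5 (19.2%) were lower in A9-P7, against 1.33% and 1.19% of all genes, with a median of -0.01. The 3 largest decreases were neighbours on chromosome 7, in the Prader-Willi region. NDN (necdin, which restrains growth in neurons) had 0.96 FPKM in both libraries of A9-P7, against 63.1 and 62.2 FPKM in C8-P7, a ratio of 65.3 in favour of C8-P7. MAGEL2, a relative of NDN that acts with ubiquitin ligases, had 0.161 FPKM in both libraries of A9-P7, against 7.65 and 8.08 FPKM in C8-P7. MKRN3, a makorin ubiquitin ligase known as a brake on puberty in humans, had 0.118 and 0.129 FPKM in A9-P7, against 6.14 and 6.02 FPKM in C8-P7. All 3 genes are transcribed from the paternal copy in humans. CHIR-P23 lay between the colonies for each of them, at 24.4 FPKM of NDN, 4.31 FPKM of MAGEL2 and 2.75 FPKM of MKRN3.

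The low level did not extend to the following genes of the region. SNURF, which shares the imprinting centre and is also transcribed from the paternal copy in humans, had 59.7 and 60.3 FPKM in A9-P7 and 59.8 and 60.8 FPKM in C8-P7. The others were chosen after their values were seen. UBE3A, the Angelman syndrome gene, had 33.1 and 33.0 FPKM in A9-P7 and 35.2 and 35.1 FPKM in C8-P7. GABRA5 and GABRG3, which encode subunits of the GABA-A receptor, were within 2-fold at 0.13 and 0.05 on the log2 scale, as were TUBGCP5, CYFIP1, NIPA2, NIPA1, ATP10A, HERC2 and APBA2 at -0.37 to 0.23.

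**Figure D3:**
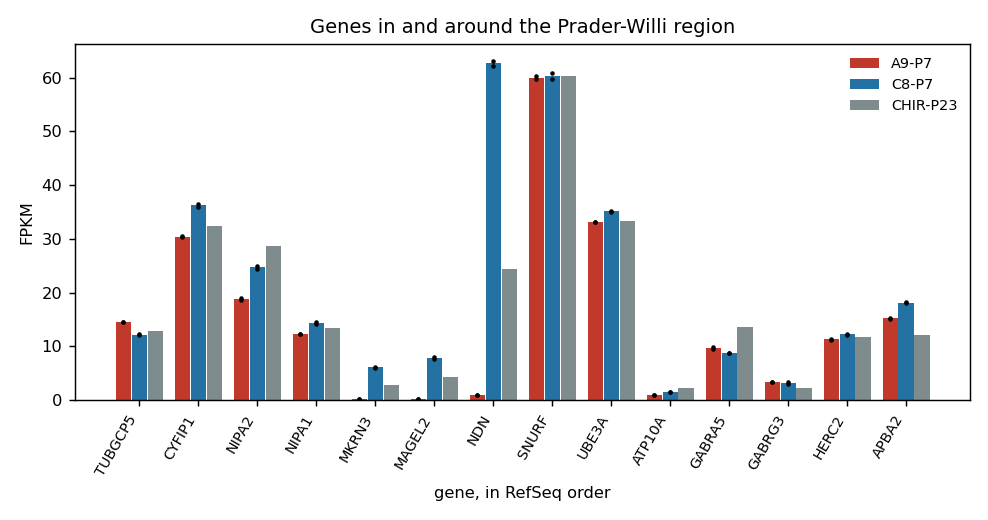
FPKM of 14 genes in and around the Prader-Willi region, in the order of the RefSeq annotation, as averages of 2 libraries in A9-P7 (red), C8-P7 (blue) and CHIR-P23 (grey), with black points for the libraries of the colonies. MKRN3, MAGEL2 and NDN are under 1 FPKM in A9-P7, and SNURF and UBE3A are level.

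Imprinted genes elsewhere showed smaller differences. PLAGL1 (chromosome 4), a zinc finger protein, had 13.3 FPKM in both libraries of A9-P7, against 29.4 FPKM in both libraries of C8-P7. PEG10 (chromosome 3), derived from a retrotransposon, had 108 FPKM in both libraries of A9-P7, against 228 and 226 FPKM in C8-P7, while SGCE, its neighbour in the imprinted cluster, had 10.6 and 10.7 FPKM in A9-P7 and 10.4 and 10.1 FPKM in C8-P7. The higher genes were INPP5F (chromosome 9), an inositol phosphatase, with 82.4 and 82.7 FPKM in A9-P7, against 21 FPKM in both libraries of C8-P7, and FAM50B, with 1.41 and 1.48 FPKM in A9-P7, against 0.17 FPKM in both libraries of C8-P7. With quantile normalization, PEG10 (-0.97) and FAM50B (0.99) came under the limit, as did PLAGL1 (-0.91) and FAM50B (0.32) with a pseudocount of 5. PEG3 was within 2-fold at a difference of 0.14, MEST at -0.81 and GRB10 at -0.41. The 9 clustered protocadherin genes that passed the filter, whose promoters are chosen cell by cell in neurons, were within 2-fold, the largest differences being 0.72 for PCDHB16 and -0.41 for PCDHB2.

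Axon guidance genes, which include secreted and membrane-bound cues, held several increases. Of 41 genes, 3 (7.32%) were higher and 1 (2.44%) was lower in A9-P7, against 1.33% and 1.19% of all genes, with a median of 0.10 and 25 of 41 above 0. SEMA3E (chromosome 3), a secreted semaphorin, had 17.6 and 17.7 FPKM in A9-P7, against 1.80 and 1.78 FPKM in C8-P7, a ratio of 9.84. SEMA6D, a transmembrane semaphorin, had 8.90 and 8.92 FPKM in A9-P7, against 2.59 and 2.66 FPKM in C8-P7. The ephrins, ligands of Eph receptors, differed among themselves. EFNB3 had 56.3 and 57.0 FPKM in A9-P7, against 23.7 and 24.2 FPKM in C8-P7, and EFNB2 had 15.7 FPKM in both libraries of A9-P7, against 32.4 and 32.5 FPKM in C8-P7. The call of EFNB2, which lay at the limit, rested on the scaling, as its log2 difference came under it with equal total FPKM (-0.96), with quantile normalization (-0.96) and with a pseudocount of 5 (-0.86). CRMP1 (chromosome 5), a cytosolic mediator of semaphorin signals, had 55.9 and 56.0 FPKM in A9-P7, against 10.3 and 10.4 FPKM in C8-P7, and only 6.89 FPKM in CHIR-P23.

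Extracellular matrix genes of neural progenitors showed 2 higher (9.52%) and 0 lower genes among 21, against 1.33% and 1.19% of all genes, with a median of 0.20. COL2A1, the chain of type II collagen, had 19.6 and 19.5 FPKM in A9-P7, against 5.03 and 4.96 FPKM in C8-P7, and both colonies were below CHIR-P23, which had 53.9 FPKM. NID1, which links laminin to type IV collagen in the basement membrane, had 24.1 and 24.0 FPKM in A9-P7, against 10.7 and 11.2 FPKM in C8-P7. TWIST1, a helix-loop-helix factor of mesenchyme and neural crest, had 5.40 and 5.41 FPKM in A9-P7, against 1.05 and 1.24 FPKM in C8-P7. It was the only higher gene among 15 neural crest genes, where PAX3 was the only lower one (6.67% each). TFAP2A, a defining marker, was listed at 0 in all 4 libraries.

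Further large increases in A9-P7 fell outside the lists. TRIM5 (chromosome 14), which binds the capsid of incoming retroviruses, had 31.2 and 31.6 FPKM in A9-P7, against 4.68 and 4.78 FPKM in C8-P7, a log2 difference of 2.50. Its neighbours TRIM22 and TRIM6, chosen after their values were seen, were at 3.35 and 3.28 FPKM in A9-P7, against 0.37 FPKM in both libraries of C8-P7, for TRIM22, and at 1.06 and 1.03 FPKM in A9-P7, against 0.07 FPKM in both libraries of C8-P7, for TRIM6. UBE2L6, the conjugating enzyme for the ubiquitin-like protein ISG15, had 31.4 and 31.1 FPKM in A9-P7, against 10.7 and 11.0 FPKM in C8-P7. Interferon and antigen presentation genes gave 1 higher (5.26%, against 1.33% of all genes) and 0 lower among 19, with a median of 0.01. The higher one was ISG15 itself, named after its value was seen, at 1.04 on the log2 scale. ERV3-1 (chromosome 3), the envelope gene of an endogenous retrovirus, had 45.8 and 45.7 FPKM in A9-P7, against 14.7 and 14.5 FPKM in C8-P7. All 17 genes of retroelement silencing were within 2-fold, with a median of -0.12.

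VAT1L had 55.3 and 55.6 FPKM in A9-P7, against 11.1 and 10.2 FPKM in C8-P7. KLHL5, a kelch protein, had a log2 difference of 1.70, FUCA2, a fucosidase, of 1.39, PNCK, a calcium and calmodulin-dependent kinase, of 1.25, ANXA11, an annexin, of 1.21, LGALS1, a galectin, of 1.16, and MAD2L1BP, a regulator of the mitotic checkpoint, of 1.13. LGALS1 had 53.3 and 53 FPKM in A9-P7 and 24.3 and 22.3 FPKM in C8-P7, both below the 231 FPKM of CHIR-P23. COX7C, a subunit of cytochrome c oxidase, had 29.2 and 26.6 FPKM in A9-P7, against 5.09 and 2.53 FPKM in C8-P7. The locus with that name lies on chromosome 13 by its neighbours in the table, whereas the RefSeq gene lies on chromosome 6, so that this value may belong to a copy and is uncertain. Chosen after their values were seen, AMPH (amphiphysin, a synaptic protein) averaged 15.2 FPKM in A9-P7 against 1.11 FPKM in C8-P7, and TEX14, known from germ cell bridges in mice, averaged 16.2 FPKM in A9-P7 against 1.44 FPKM in C8-P7.

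The other large decreases included genes of several functions. FGF13 (X chromosome), an intracellular relative of fibroblast growth factors, had 0.517 and 0.468 FPKM in A9-P7, against 22.1 FPKM in both libraries of C8-P7, a log2 difference of -3.95. WSB1 (chromosome 16), a substrate adaptor of a ubiquitin ligase, had 136 FPKM in both libraries of A9-P7, against 463 and 472 FPKM in C8-P7. As CHIR-P23 also had 136 FPKM of WSB1 and the earlier lines between 63.8 and 124 FPKM, C8-P7 had the highest level of the 7 lines. ZNF267, a zinc finger protein, had 5.78 and 5.68 FPKM in A9-P7, against 24.7 and 24.8 FPKM in C8-P7, and 6.25 FPKM in CHIR-P23. ORC6, a subunit of the origin recognition complex, had 25.7 FPKM in both libraries of A9-P7, against 72.0 and 70.5 FPKM in C8-P7. ENPP2 (autotaxin) had a log2 difference of -1.51.

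Signalling pathways differed in single genes, although the medium acts on some of them. A single call made up 4.35% to 7.69% of the lists in this paragraph, against 1.33% of all genes higher and 1.19% lower. A list of this size can show no smaller share than that of 1 call. Among 16 WNT targets, LEF1, a partner of beta-catenin, was the only one called, with 17.5 and 17.7 FPKM in A9-P7, against 7.21 and 7.47 FPKM in C8-P7. Among 13 WNT ligands, WNT7B was the only one called, at 0.200 and 0.208 FPKM in A9-P7, against 2.18 and 2.23 FPKM in C8-P7. HES4 was the only gene called of 17 in the NOTCH pathway, at -1.40, and DUSP6, a phosphatase induced by FGF signals, the only one of 16 FGF and MAPK feedback genes, at -1.09. Of 20 TGF-beta and BMP targets, TGFB2 was lower at -1.12, and TGFB1, named after its value was seen, was higher, with 1.16 and 1.05 FPKM in A9-P7 and both libraries of C8-P7 listed at 0. None of the 10 LIF and STAT3 genes and none of the 16 retinoic acid genes reached the limit. CHAC1, a glutathione-degrading enzyme, was the only gene called of 23 in the ATF4 and ER stress list, at 1.21, and KRT8, a keratin, was lower at -1.17 among 16 epithelial junction genes, where CLDN6, named after its value was seen, was higher, with 1.03 and 1.13 FPKM in A9-P7 and both libraries of C8-P7 listed at 0.

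Cell cycle genes were close. Of 24 mitosis genes, 0 were called, with a median of 0.03. Of 25 genes of S phase and replication, E2F1 was the only one called (4%, against 1.19% of all genes lower). It had 11.4 FPKM in both libraries of A9-P7 and 24.7 and 24.4 FPKM in C8-P7. The median of the list was -0.25, with 24 of 25 below 0. The 20 p53 targets had a median of 0.19 and the 19 cholesterol synthesis genes one of -0.17, with 0 genes called in either list, and the same count was found for 22 hypoxia and glycolysis genes and 13 DNA methylation genes. Of 14 metallothionein and detoxification genes, MT2A and MT1E, which bind metals, were lower (14.3%, against 1.19% of all genes). MT2A had 1.84 and 1.66 FPKM in A9-P7, against 9.87 and 9.0 FPKM in C8-P7. MT1E, whose locus and RefSeq gene lie on different chromosomes and which has near-identical relatives, had a log2 difference of -1.43 and is uncertain.

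**Figure D4:**
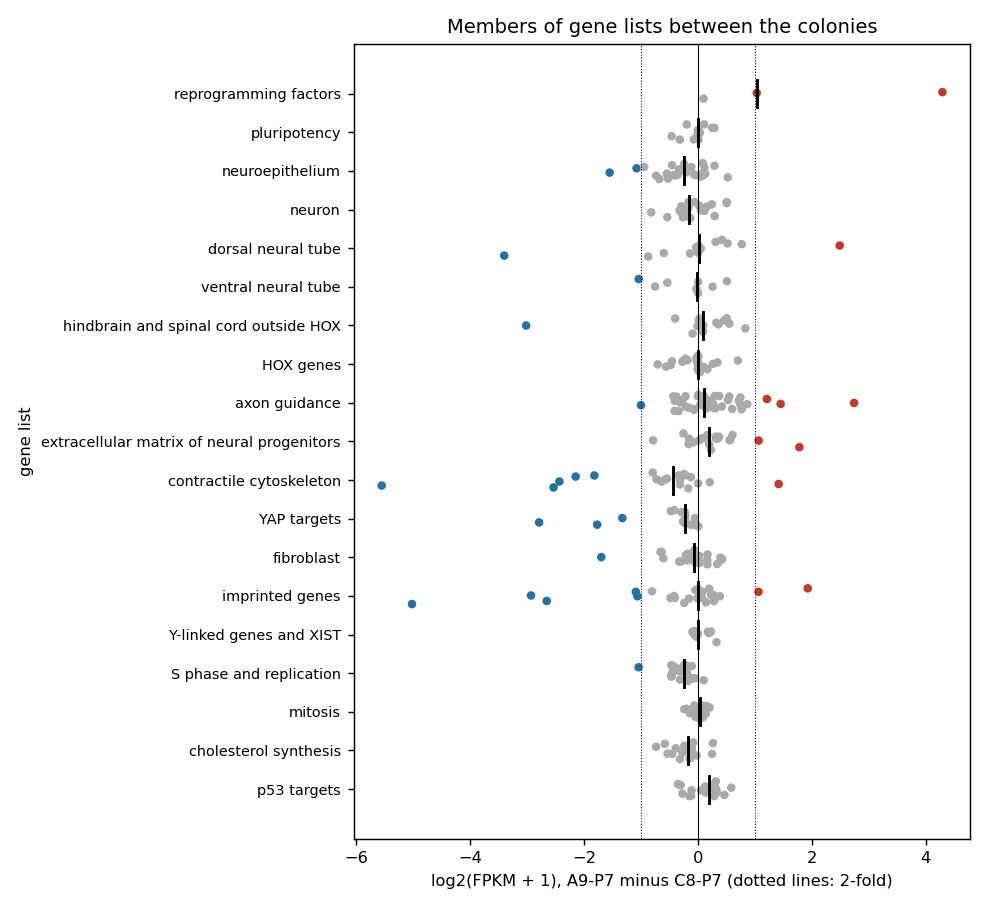
Log2(FPKM + 1) of A9-P7 minus C8-P7 for each gene of 19 lists, 1 point per gene, with genes at least 2-fold higher in red, lower in blue and others in grey. Black bars are list medians and dotted lines the 2-fold limit; the medians lie between -0.25 and 0.20 apart from the reprogramming factors (1.03) and the contractile cytoskeleton (-0.44), and the contractile and the imprinted genes hold 5 lower genes each.

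The differences were spread over the genome. Of the genes described, 14196 could be placed on 21 chromosomes, and the median difference of a chromosome lay between -0.04 and 0.01. Among genes averaging at least 5 FPKM the medians lay between -0.07 and -0.003. Calls made up 1.35% to 5.11% of the genes of a chromosome, against 2.52% of all genes, and the highest share was that of chromosome 17, with 8 genes higher and 6 lower of 274. Among 12966 genes placed in RefSeq order, 40 of the 296 placed calls stood within 2 positions of another call in the same direction, in 19 groups. The Prader-Willi genes, TRIM5 with TRIM22, and WSB1 with KSR1, the last chosen after its values were seen, were among them. MT2A with MT1E, whose place is uncertain, was also counted as a group. How many groups unlinked calls would give was not calculated.

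CHIR-P23, the culture from which both colonies were taken, was not uniformly nearer to either. For the 200 genes higher in A9-P7, the level of CHIR-P23 lay between the colonies in 121 genes, at or above both in 35 and at or below both in 44. For the 179 genes lower in A9-P7, it lay between the colonies in 119 genes, at or above both in 39 and at or below both in 21. On the log2(FPKM + 1) scale, it was nearer to A9-P7 than to C8-P7 in 94 of the 200 and 76 of the 179. Over all 7 cell lines, A9-P7 had the highest level in 89 of the 200 genes, and fibroblasts in 30. C8-P7 had the highest level in 83 of the 179 genes, and fibroblasts in 50. These genes were chosen by the difference between the colonies, so the higher colony was favoured and the lower one could not be highest. The same choice widens the gap in which CHIR-P23 can lie. Shares over all genes were not calculated for these counts.

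**Figure D5:**
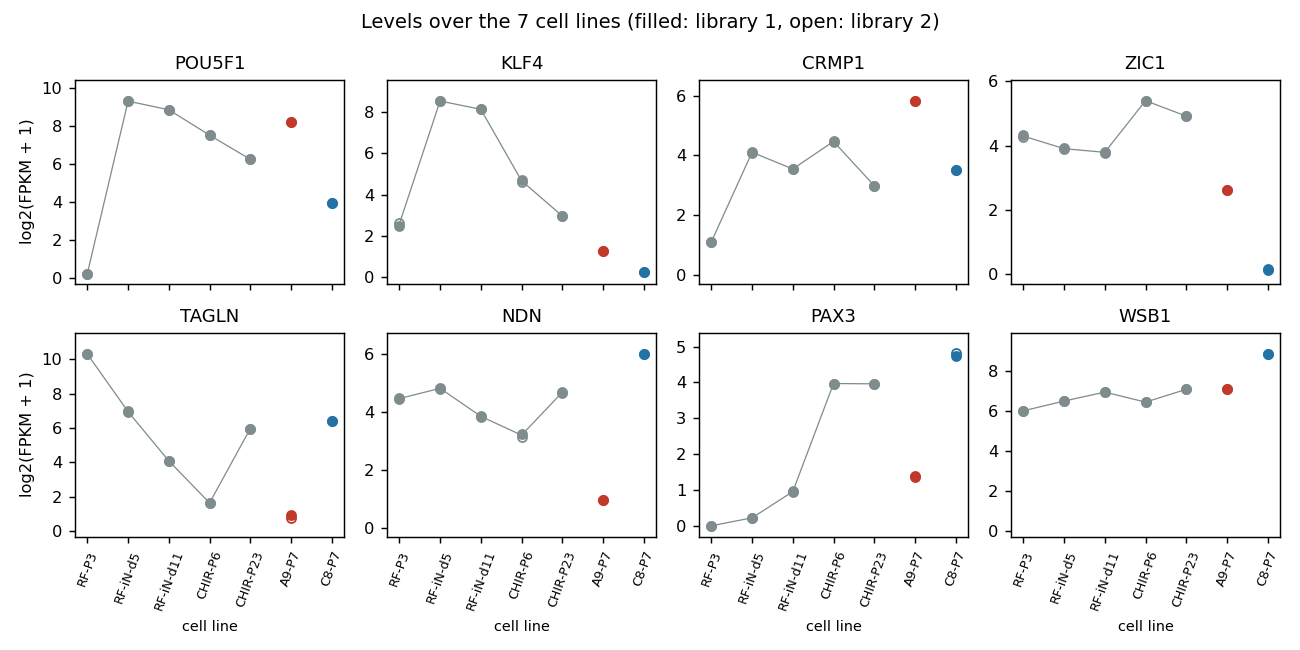
Log2(FPKM + 1) of 8 genes over the 7 cell lines, from fibroblasts (RF-P3) through day 5, day 11, CHIR-P6 and CHIR-P23 (grey, joined by a line) to the colonies A9-P7 (red) and C8-P7 (blue). POU5F1 and CRMP1 are higher in A9-P7 than in CHIR-P23, KLF4 and ZIC1 are lower in both colonies than in CHIR-P23, and TAGLN, NDN and PAX3 are low only in A9-P7 of the 3 late lines.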

How the data were processed

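Ribosome-depleted total RNA was sequenced as paired reads of 100 bp in 2 libraries for each of 7 cell lines. The authors deposited FPKM for 33737 gene loci, for which the submitters' processing notes name the build Mmul_8.0.1 (their article names another), Cuffnorm 2.2.1, Cufflinks 2.2.1 and HISAT2 2.1.0. FPKM normalises for length and depth. Read totals were not used here.

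In 28445 loci the deposited values stood 1 row below their label and were moved back, and 49 loci were left out. After this, 1481 of 1627 genes of the study's supplementary gene table (91%) matched its averages within 0.3 on the log2(FPKM + 1) scale in all cell lines, against 144 (8.85%) before.

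Relative depth was read from the smallest FPKM steps, within 0.1 of a whole fragment number, and was 5.30 for A9-P7, 1.27 for C8-P7 and 4.74 for CHIR-P23. FPKM summed to 571238 and 571904 in A9-P7 and to 589796 and 589571 in C8-P7. The squared difference of fragment numbers over their sum was 0.139 to 0.154 for the pairs of libraries. On simulated data this ratio was 1 for independent libraries and 0.146 for libraries built to share most of their fragments. The shared part was set in advance, so 0.146 does not measure how much the real libraries share. Because the observed ratios were far below 1, each pair was averaged as 1 sample and no test was made. The labels number the libraries as replicates, and the article calls them biological replicates.

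Genes with FPKM of at least 1 in at least 2 libraries were compared as log2(FPKM + 1), A9-P7 minus C8-P7. Named genes are the 15 that were higher by most and the 15 that were lower by most in A9-P7, if they reached 20 FPKM and had an assigned gene name, up to 4 called genes of 2 FPKM or more per list, and all reprogramming factors, imprinted, HOX and protocadherin genes. The members and the 41 lists were chosen with earlier results of these data known. Among the lists not described in the text, 0 of 4 midbrain and isthmus genes were called. They summed to only 0.131 FPKM in A9-P7 and 1.07 FPKM in C8-P7. Of the 17 immediate early and AP-1 genes, 0 were higher and 1 (5.88%, against 1.19% of all genes) was lower. This was IER3, named after its value was seen. Some further results are not reported here. Chromosomes were taken from neighbours of each locus, and order from RefSeq (T2T-MMU8v2.0). Pseudocounts, filters, scaling and leaving out libraries were varied. The calculations ran in Python 3.11.15 (pandas 2.3.3, NumPy 2.4.6, Matplotlib 3.10.9, SciPy 1.17.1).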

Additional observations from a re-analysis of the deposited data

How the results depend on the processing

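The number of genes higher and lower in A9-P7 depended on how weakly expressed genes were treated. With a pseudocount of 0.1 instead of 1, 758 genes were higher and 470 lower, and with a pseudocount of 5, 32 were higher and 46 lower. When 5 FPKM or more was required in 1 of the colonies, 84 were higher and 96 lower, and at a 4-fold limit 30 and 25. The split thus moved between 61.7% higher at a pseudocount of 0.1 and 41% at a pseudocount of 5, against 52.8% as reported. Without the filter the counts were 205 and 183, with quantile normalization 172 and 195, and with equal total FPKM 241 and 173. Leaving out 1 library gave 202 to 211 higher and 176 to 184 lower genes. With the labels as deposited the counts were 200 and 179, but the values then stand beside other genes. Of 60 named genes past 2-fold, 0 changed sign, and 21 came under 2-fold in some setting, 19 of them with a pseudocount of 5, 5 with quantile normalization and 1 with equal total FPKM. With 1 library left out, EFNB2 (-0.999) and DBX1 (-0.98) did. Those under 2-fold with a pseudocount of 5 were ANXA11, CHAC1, DBX1, DUSP6, E2F1, EFNB2, FAM50B, HES4, KLF4, KRT8, LEF1, MAD2L1BP, NID1, PLAGL1, SEMA6D, TGFB2, TWIST1, WNT7B and ZIC1. No paired analysis was possible because both libraries of a colony count as 1 sample and no test was made. In C8-P7, 1 fragment is worth 4.16 times more FPKM than in A9-P7, and the part of depth in its genes listed at 0 was not tested.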

Other observations

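Several uncharacterised loci had some of the largest differences. They were chosen after their values were seen, and a value of 0 in this table may be a failed estimate. LOC106995782 had 49.3 and 61.6 FPKM in A9-P7 and was listed at 0 in both libraries of C8-P7, as in all other lines except CHIR-P6, which had 43.2 and 43.3 FPKM. LOC106994434 had 54.0 and 52.1 FPKM in A9-P7, against 4.53 and 4.51 FPKM in C8-P7. LOC106993035 had 8.59 and 8.60 FPKM in A9-P7, against 37.0 and 36.6 FPKM in C8-P7, and LOC107000674 had 2.27 FPKM in both libraries of A9-P7, against 10.5 and 10.4 FPKM in C8-P7. Both of these loci were listed at 0 in all libraries of the other 5 lines, CHIR-P23 included.

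Some related genes differed in opposite directions without reaching the limit. CRABP1 and CRABP2, which bind retinoic acid in the cytoplasm, had log2 differences of -0.84 and 0.65. CRABP1 had 196 FPKM in A9-P7 and 350 FPKM in C8-P7 in library 1, and CRABP2 had 745 FPKM in A9-P7 and 474 FPKM in C8-P7. ASNS and PSAT1, enzymes of asparagine and serine synthesis, had differences of 0.67 and 0.66, while HSPA5, a chaperone of the endoplasmic reticulum in the same list, had -0.57. Unlike these genes, CLU (clusterin, a secreted chaperone) was past the limit and lower in A9-P7. It averaged 2.40 FPKM in A9-P7 and 12.9 FPKM in C8-P7, both below the 76.0 FPKM of CHIR-P23.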
